A study of Mus musculus with 25 samples.

Results

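Mif, Ddt, Cd74 and Cd44 encode the cytokine MIF, its homologue D-dopachrome tautomerase, and the receptor chain CD74 with its co-receptor CD44. These 4 of the 24421 gene symbols measured by mRNA sequencing of mouse hypothalamus were taken by name, and all 4 were found in each comparison. The family was chosen because Mif rose with a maternal hypercaloric diet (HCD) in both comparisons of HCD-weaned offspring. The members were thus chosen by measured fold changes and adjusted p-values of Mif there, and the values of Mif in those comparisons are given as a description, without a test.

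The study asked how the diet of a dam before and during pregnancy and lactation marks the hypothalamus of its offspring. Wild-type C57BL/6J dams ate HCD, a high-sucrose chow with 52% fat, or a regular diet (RD), from 1 month before mating until the pups were weaned. The offspring were weaned onto HCD or RD and the hypothalamus was taken at 3 months of age, and only the RD-RD groups never met HCD through dam or food. The 8 groups are named by maternal and then postnatal diet. HCD-HCD, RD-HCD and HCD-RD have 3 males and 3 females each, and RD-RD has 4 males and 3 females, 25 samples in all. Each of the 4 comparisons set the offspring of HCD dams against those of RD dams, at 1 sex and 1 postnatal diet. Sets of 4 values follow a fixed order: males and females weaned onto HCD, then males and females weaned onto RD. No comparison shares samples with another. A positive fold change means a higher level in the offspring of HCD dams. The labels give this order for the HCD-weaned comparisons, while for the RD-weaned ones it rests on the order in which the groups are named, and a wrong reading would turn every sign in such a comparison. The single libraries could not be tied to groups and were not used, so each value is a group-level value of the authors' comparison and no sample's own level is given. In whole tissue, fewer cells of a type and less RNA per cell cannot be told apart.

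MIF is held ready-made in the cytoplasm of many cell types, neurons and macrophages among them, and is released on stimulation. It counteracts the anti-inflammatory action of glucocorticoids, and in hypothalamic neurons it has been described as a brake on angiotensin II signalling. MIF and DDT bind the extracellular part of CD74, which is also the invariant chain that guides MHC class II molecules through antigen-presenting cells. CD74 needs CD44, the hyaluronan receptor, to pass the signal on to Src-family kinases, and MIF also acts through the chemokine receptors CXCR2, CXCR4 and ACKR3.

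The ligand genes are small and lie in the same stretch of a chromosome. On GRCm38, in the GENCODE M21 annotation, Mif (ENSMUSG00000033307.7) lies on the minus strand of chromosome 10 from 75859353 to 75860240. Its longest protein-coding transcript has 3 exons, 544 bases and 348 coding bases, and 7.69% of the gene models matched to the tables were shorter. Ddt (ENSMUSG00000001666.8) lies on the same strand from 75771230 to 75773414, with 3 exons, 649 bases and 357 coding bases. The genes are 85938 bases apart, and their coding sequences were 62.3% identical over the 321 bases that aligned. Ddt overlaps Gm20441, a gene model on the same strand from 75771451 to 75780954, so reads from the shared part could have come from either. The receptor genes are longer and lie on other chromosomes. Cd44 (ENSMUSG00000005087.17) is on the minus strand of chromosome 2 from 102811141 to 102901665, with 19 exons and 5614 bases, longer than 88.4% of the gene models.

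Only the ligand promoters are shown, because these homologous genes had the highest levels of the family. The 250 bases before each transcription start, read from RefSeq on GRCm38.p6 along the minus strand, are given 5′ to 3′ with motif matches in capitals. The RefSeq start lies 37 bases upstream of the GENCODE gene end for Mif and 40 bases inside the GENCODE gene for Ddt, and positions are counted from the RefSeq start.
Mif promoter, chr10:75860278-75860527: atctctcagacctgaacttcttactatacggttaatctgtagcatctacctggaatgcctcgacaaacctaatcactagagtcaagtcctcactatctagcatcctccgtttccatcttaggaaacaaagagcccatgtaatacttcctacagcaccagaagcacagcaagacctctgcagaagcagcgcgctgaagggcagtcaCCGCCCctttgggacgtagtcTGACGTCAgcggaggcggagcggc
Ddt promoter, chr10:75773375-75773624: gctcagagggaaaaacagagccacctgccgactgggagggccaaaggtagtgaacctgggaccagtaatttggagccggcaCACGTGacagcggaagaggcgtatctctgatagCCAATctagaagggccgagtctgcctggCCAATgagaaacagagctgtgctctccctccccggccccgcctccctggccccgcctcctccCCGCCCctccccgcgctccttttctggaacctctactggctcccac
The motifs were searched on both strands. TGACGTCA, the full cyclic-AMP response element, is in 1.55% of 32851 promoters of this length. Mif has 1, starting 24 bases before the RefSeq start, and Ddt and Cd44 have none. GGGCGG, the GC box bound by Sp1, is in 32.7% of promoters, with 1 match each in Mif and Ddt on the opposite strand (CCGCCC) and none in Cd44. CACGTG, an E-box, is in 6.02% of promoters and has 1 match in Ddt. CCAAT is in 33.8% and has 2 matches in Ddt. The core hypoxia-response letters ACGTG, in 16.6% of promoters, matched only inside that E-box in Ddt, and once in Cd44. The Mif window holds 11 CG pairs and the Ddt window 12, against a median of 6 over all promoters. These are letter matches and not measured binding.

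The hypothalamic labels were checked against lists of marker genes. In the authors' deposited tables the mean normalized counts of marker genes were summed, not divided by length, as parts per 1000000 (ppm) of all counts. The 12 genes of hypothalamic neurons held 202 to 559 ppm and the 12 of cortex, hippocampus and striatum 1140 to 1880 ppm. The 6 choroid plexus genes held 4037 to 5220 ppm and the 8 thalamus genes 570 to 884 ppm. The tissue thus held markers of neighbouring regions as well. In HCD-weaned males 11 of the 12 hypothalamic genes were negative in the authors' deposited table, with a median log2 fold change of −1.05. Of these, 4 were called (Oxt, Hcrt, Pmch and Sim1). Negative as well were 7 of 10 tested ones in HCD-weaned females, 6 of 7 in RD-weaned males and 10 of 11 in RD-weaned females. The medians there were −0.29, −0.14 and −0.30, with none called. All 11 tested cortex, hippocampus and striatum genes were positive for RD-weaned females, and all 8 thalamus genes for RD-weaned males, in the authors' deposited tables. Of the 12 cortex, hippocampus and striatum genes 10 were negative in HCD-weaned males. For HCD-weaned females 10 of the 12 were positive, and for RD-weaned males 9. The thalamus genes were negative for 7 of 8 in RD-weaned females and evenly split in HCD-weaned males. For RD-weaned females 5 of 6 choroid plexus genes were positive as well, with a median log2 fold change of 0.59 and Kl called higher. For RD-weaned males the neuronal gene Snap25 was called higher, with 5 of 6 neuron markers positive. The authors' deposited table of HCD-weaned females had the neuronal tubulin gene Tubb3 called higher (0.83 ± 0.18, adjusted p of 0.00257 by DESeq), with 5 of 6 neuron markers positive. The thalamus marker Ramp3 was also called higher there (0.77 ± 0.23, adjusted p of 0.0492 by DESeq). The 8 thalamus genes were evenly split in that comparison, 4 positive and 4 negative, with a median log2 fold change of −0.009. The astrocyte water channel gene Aqp4 was called lower there (−1.25 ± 0.33, adjusted p of 0.0229 by DESeq), with 5 of 7 astrocyte markers negative, as was Xist in the authors' deposited table (−0.94 ± 0.21, adjusted p of 0.00331 by DESeq). Of all tested genes, 0.163%, 1.52%, 0.0851% and 0.346% were called in the fixed order. The part of these marker differences in the members' values was not tested. Mean normalized counts of the sex-linked genes matched the labelled sex in each of the 4 comparisons.

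Mif was the most abundant of the family by far. Levels are mean normalized counts of the authors' deposited tables over both groups of a comparison, divided by transcript length and scaled so that each table sums to 1000000 (ppm). The tables were normalized separately, so levels set across them are a description. Computed from the authors' deposited tables, Mif stood at 937, 948, 583 and 658 ppm in the fixed order. Between 98.2% and 99.0% of genes were lower. Ddt, the second ligand, stood at 285, 336, 213 and 277 ppm in the authors' deposited tables. Mif exceeded Ddt 3.29-fold, 2.82-fold, 2.73-fold and 2.37-fold.

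The receptor chain was far less abundant than its ligands. Cd74 (ENSMUSG00000024610.15) is on the plus strand of chromosome 18 from 60803848 to 60812652, with 9 exons and 1410 bases. Cd74 stood at 18.0, 19.4, 9.87 and 15.8 ppm in the authors' deposited tables, in the middle range of genes. The ratio of Mif to Cd74 was between 41.7 and 59.1. Cd44 stood at 1.47, 1.04, 1.21 and 1.33 ppm in the authors' deposited tables, with only 5.90% to 12.6% of genes lower. The order Mif, Ddt, Cd74, Cd44 was thus the same in all 4 comparisons, and no sample spread could be put on it. Within a gene the highest level was 1.63 times the lowest for Mif, 1.58 times for Ddt, 1.96 times for Cd74 and 1.42 times for Cd44. RD-weaned males gave the lowest level of Mif, Ddt and Cd74.

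**Figure D1:**
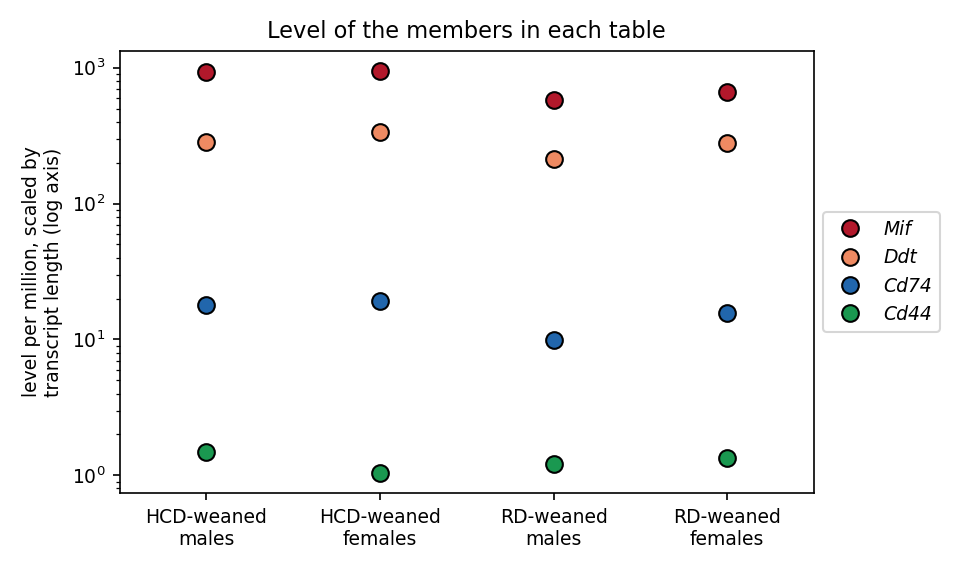
Length-scaled level of the 4 genes in ppm (log axis) in each comparison, computed from the mean over both groups in the authors' tables; no error can be given for a single comparison. Mif lies above Ddt, Cd74 and Cd44 in every comparison, from 583 to 948 ppm.

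The microglia and macrophage markers that could accompany Cd74 and Cd44 were measured beside them. The 13 microglial markers had a summed count, not divided by length, of 702 to 886 ppm of all counts in the authors' deposited tables. The 6 perivascular and meningeal macrophage markers summed to between 6.42 and 10.2 ppm. Of 14 lymphoid, dendritic and blood markers only 2 to 4 reached a mean normalized count of 10 with a test in the authors' deposited tables. None of the tested microglial or macrophage markers was called in any comparison, where 0.0851% to 1.52% of all tested genes were called.

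Mif was higher in the HCD-weaned offspring of HCD dams in both sexes. In males the log2 fold change was 1.14 ± 0.26 (SE, 3 against 3), a 2.20-fold difference, at a mean normalized count of 6235 in the authors' deposited table. In females it was 1.45 ± 0.22 (SE, 3 against 3), a 2.74-fold difference, at a mean of 5637 in the authors' deposited table. The 95% intervals are 0.63 to 1.65 and 1.02 to 1.89 on the log2 scale. Only 5 tested genes in males and 2 in females had a larger fold change. These are the values for which the family was chosen, so they stand without a test.

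In the RD-weaned offspring, which the choice did not use, Mif did not pass. In RD-weaned males, whose comparison lists 7 samples and whose library files hold 6 columns, the log2 fold change was 0.71 ± 0.38 (SE, 95% interval −0.04 to 1.47) in the authors' deposited table. Its DESeq Wald test in the authors' deposited table gave p = 0.0633 before and 1.00 after adjustment, and 1.68% of tested genes had a larger fold change. For RD-weaned females the authors' deposited table gave Mif a log2 fold change of 0.28 ± 0.23 (SE, 3 against 3, 95% interval −0.18 to 0.74; adjusted p = 1.00 by DESeq). Both point estimates lay on the positive side and both intervals included 0. A positive sign in all 4 comparisons was found for 1756 (12.3%) of the 14278 genes with a mean normalized count of at least 10 in all 4, Mif among them. With the RD-weaned signs turned it would be 980 genes (6.86%), and Mif would be negative in both RD-weaned comparisons. The positive signs of Mif in HCD-weaned offspring were fixed by the choice, so nothing is read from its place among the 1756.

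Ddt, whose product acts on the same receptor as MIF, did not pass in any comparison. In the authors' deposited tables of HCD-weaned offspring it had a log2 fold change of 0.41 ± 0.29 in males and 0.49 ± 0.27 in females (SE, adjusted p of 0.731 and 0.449 by DESeq). In the authors' deposited tables of RD-weaned offspring it was −0.24 ± 0.38 in males and −0.08 ± 0.25 in females (SE, adjusted p = 1.00 in both by DESeq). The intervals in HCD-weaned offspring reached from −0.17 to 0.99 in males and from −0.05 to 1.03 in females, so a doubling lies near their upper ends.

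The receptor genes showed no called change. In the authors' deposited tables of HCD-weaned offspring Cd74 had a log2 fold change of −0.28 ± 0.28 in males and 0.12 ± 0.36 in females (SE, adjusted p of 0.814 and 0.968 by DESeq). It was 0.16 ± 0.41 and 0.11 ± 0.29 in RD-weaned males and females (SE, adjusted p of 1.00 in both by DESeq) in the authors' deposited tables. Cd44 had −0.30 ± 0.30 and −0.02 ± 0.42 in HCD-weaned males and females (SE, adjusted p of 0.820 and 0.998 by DESeq) in the authors' deposited tables. In the RD-weaned comparisons Cd44 has a fold change, 0.19 ± 0.34 in males and −0.08 ± 0.29 in females (SE), but no p in the authors' deposited tables. Mean normalized counts were 45.5 to 101 for Cd44 and 93.2 to 310 for Cd74. The 95% intervals run as far as −0.89 and 0.97, and changes inside each interval are not excluded. The fold changes and standard errors look shrunken toward 0, so these intervals do not exclude larger changes either. For RD-weaned females the standard errors of 0.295 for Cd74 and 0.289 for Cd44 lay near 0.296, the largest of any gene.

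Of the 4 genes, 1 was called in each HCD-weaned comparison, at an adjusted p under 0.05, and it was Mif, whose values fixed the choice. Over all tested genes 0.163% were called in HCD-weaned males (0.0455% higher, 0.117% lower) and 1.52% in HCD-weaned females (0.984% higher, 0.538% lower). Nothing is read from the members' count there. Among RD-weaned males 0 of 3 tested members were called, against 0.0851% of all genes (0.0387% higher, 0.0464% lower). Among RD-weaned females it was 0 of 3, against 0.346% (0.12% higher, 0.226% lower). Without adjustment, none of the members in the RD-weaned comparisons had a p under 0.05 in the authors' deposited DESeq tables.

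**Figure D2:**
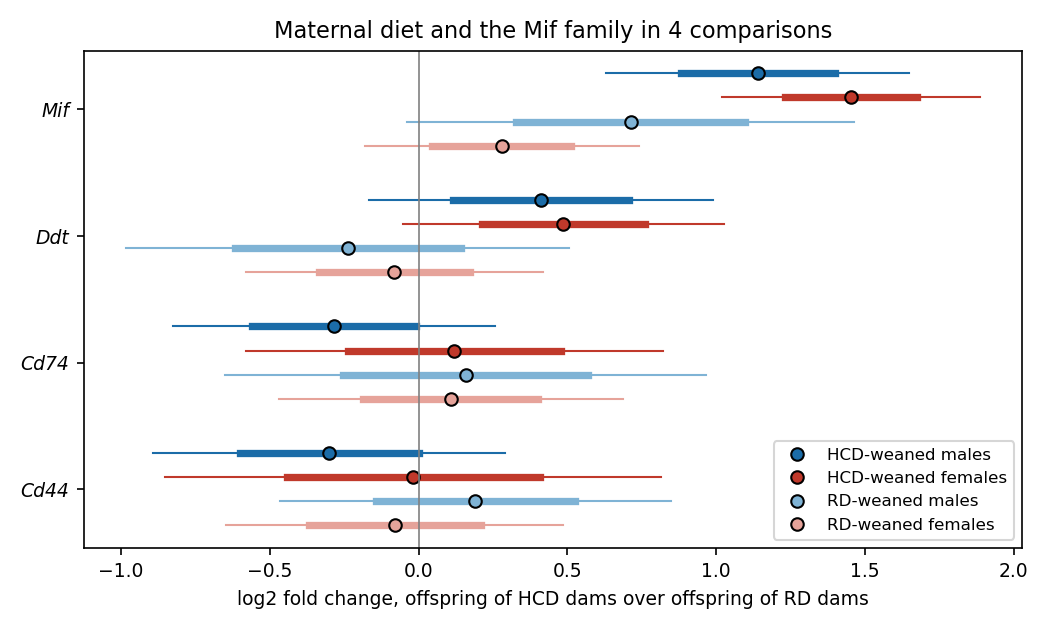
Log2 fold change of each of the 4 genes in each comparison, offspring of HCD dams over offspring of RD dams, with 95% intervals from the authors' tables. Mif is at 1.14 and 1.45 in HCD-weaned males and females, and every interval of Ddt, Cd74 and Cd44 includes 0.

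Whether a member answered differently in the sexes or on the postnatal diets was tested as the difference of 2 log2 fold changes over their joint standard error. No member passed. For RD-weaned males minus RD-weaned females, Mif gave 0.43 ± 0.45 (SE, adjusted p of 0.999 by this z test over all genes with Benjamini-Hochberg adjustment). Ddt gave 0.65 ± 0.48 for HCD-weaned minus RD-weaned males (adjusted p of 0.978 over all genes) and 0.57 ± 0.37 for HCD-weaned minus RD-weaned females (adjusted p of 1.00 over all genes). Of 10 such member tests 0 passed and 0 had an unadjusted p under 0.05, with 0.129 as the smallest. Over all genes the share called was 0% for HCD-weaned males minus females, 0.00791% for RD-weaned males minus females, 0.00775% (1 gene) for the diets in males and 0.00685% (1 gene) for the diets in females. With the signs of the RD-weaned comparison turned, these last counts would be 4 and 186 genes, and again no member. The differences that involve the chosen Mif values were not tested. These were −0.31 ± 0.34 for HCD-weaned males minus females, 0.43 ± 0.46 for the postnatal diets in males and 1.17 ± 0.32 for the diets in females, and those across diets rest on the sign read for the RD-weaned comparison.

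Short transcripts tended to higher statistics in 3 of the comparisons, and Mif is short. The Spearman correlation of the Wald statistic with transcript length, across tested genes, was −0.570, −0.464, 0.0966 and −0.223 in the fixed order. It is a description across genes, which are not independent replicates. Mif had a Wald statistic of 4.40 in HCD-weaned males in the authors' deposited table, where genes of its length and GC content averaged 1.26. In HCD-weaned females it had 6.59 in the authors' deposited table against 1.13. In RD-weaned males the statistic of 1.86 in the authors' deposited table stood against −0.76, and 1.19 stood against 0.18 among RD-weaned females. With the length and GC trend taken off, the log2 fold change of Mif was 0.81 and 1.20 in HCD-weaned males and females, and 1.01 and 0.24 in RD-weaned ones. In that form 21 genes in HCD-weaned males and 4 in HCD-weaned females had a larger statistic than Mif, and Mif was no longer among the genes called in HCD-weaned males. It was also not among the 3 genes called there when the statistics were scaled by their robust spread. Ddt, nearly as short, had statistics of 0.25, 0.80, 0.02 and −0.39 with the trend taken off, in the fixed order. Cd74 had −2.03 in HCD-weaned males in this form.

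**Figure D3:**
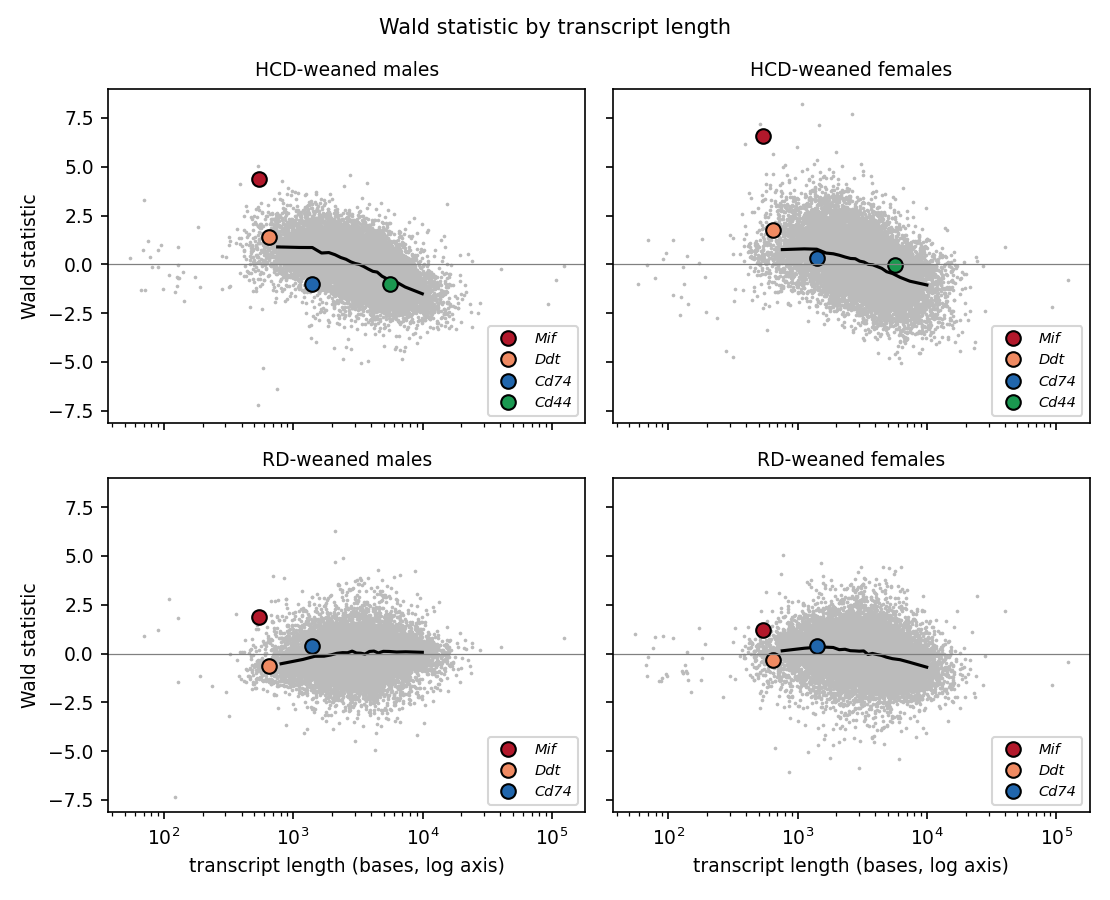
Wald statistic of each tested gene (grey) against transcript length in bases (log axis), for the 4 comparisons, with the members in colour. The line joins the medians of genes grouped by length and takes no account of GC content. Mif lies above this line in each, at 4.40 and 6.59 in HCD-weaned males and females.

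Mif has processed copies elsewhere in the genome with long stretches of shared sequence. Gm10169, on chromosome 7 from 29965218 to 29965565, matches 345 of the 348 coding bases of Mif (99.1%), with an identical run of 255 bases. Counted from 1 at the start of the coding sequence, with the base of Mif first, it differs by G35A, G63T and G319A. Mif-ps3 on chromosome 3 is 96.5% and Mif-ps7 on chromosome 12 is 92.0% identical to the coding sequence. None of these copies is a row of the tables, so the share of reads they drew or gave was not tested.

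Around Mif and Ddt 1 gene was called, in 1 comparison, HCD-weaned females, where 1.52% of all tested genes were called. Of 12 genes of the tables within 100 kb of either, 9 had a test, and their median log2 fold change was 0.24, 0.16, −0.22 and −0.15 in the authors' deposited tables. Chchd10, which encodes a protein of the mitochondrial intermembrane space, was the 1 neighbour called. It overlaps Mmp11 on the opposite strand, and whether the counting used strand is not given in the sources used here. In the authors' deposited table of HCD-weaned females its log2 fold change was 0.99 ± 0.21 (SE, adjusted p = 0.00134 by DESeq), and it had 0.61 ± 0.27 (adjusted p of 0.536 by DESeq) in HCD-weaned males. With the length and GC trend removed its adjusted p in HCD-weaned females was 0.0546. The theta-class glutathione transferase Gstt3, which lies between Ddt and Mif, had −1.09 ± 0.39 in RD-weaned males (SE, adjusted p of 0.522 by DESeq) in the authors' deposited table, where Mif had its 0.71. The smallest p among the neighbours in RD-weaned females was that of Mmp11, a matrix metalloproteinase gene, at −0.38 ± 0.29 (SE, adjusted p of 1.00 by DESeq) in the authors' deposited table.

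**Figure D4:**
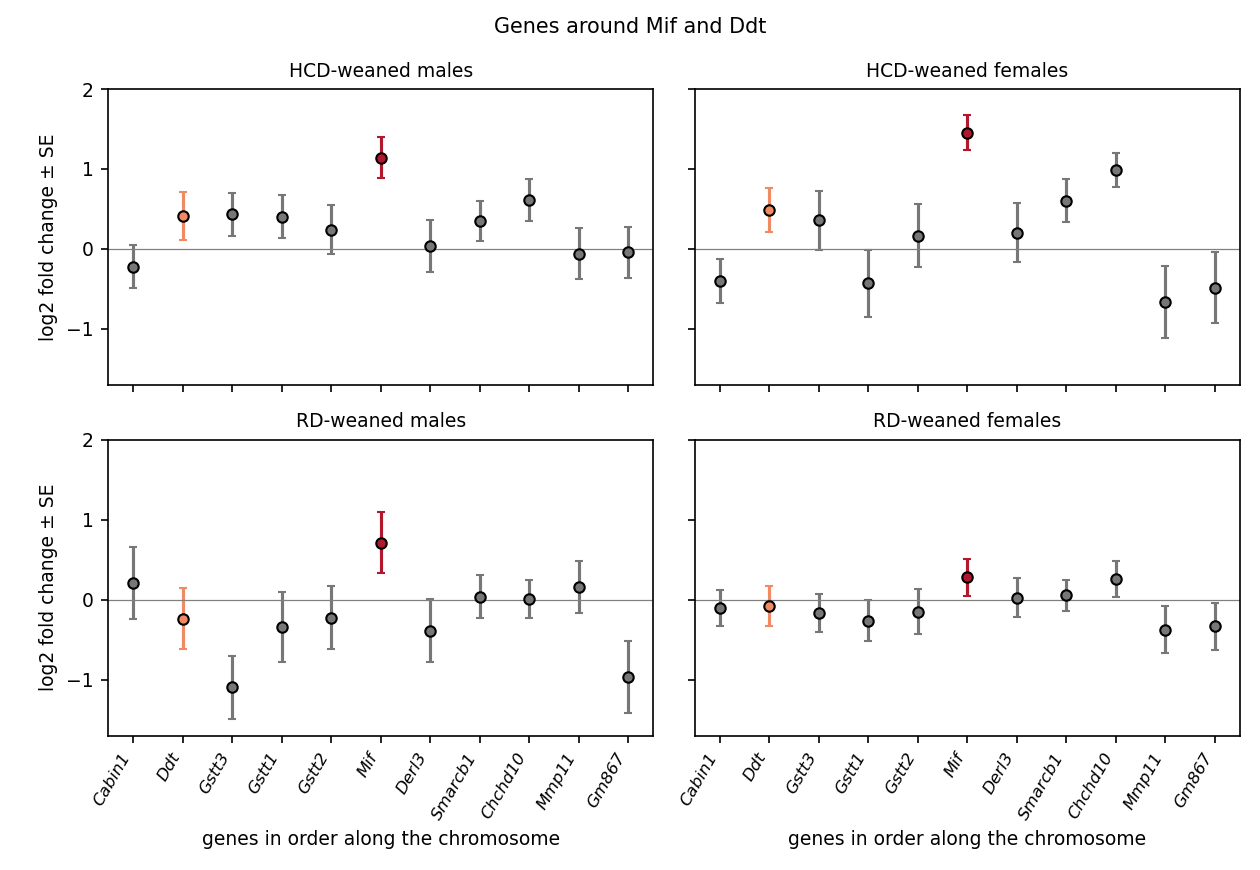
Log2 fold change with its standard error for Ddt, Mif and their tested neighbours, in the order of their start sites along the chromosome, for the 4 comparisons in the authors' tables. Mif stands at 1.14 and 1.45 in the HCD-weaned panels, and Chchd10 at 0.61 and 0.99.

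The other receptors of MIF were not called. Cxcr2 had the status Low, a mean normalized count under 10, in each of the authors' deposited tables. Ackr3, a scavenging chemokine receptor, had log2 fold changes of 0.25, 0.01, −0.15 and 0.42 in the authors' deposited tables. Cxcr4 had 0.06, −0.04, −0.13 and −0.30 in the authors' deposited tables. Every one of these missed the threshold, which 0.0851% to 1.52% of all tested genes passed in a comparison.

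Among 8 genes of proteins that meet MIF inside the cell or act on its promoter, 2 were called, both in HCD-weaned females and both higher. Over all tested genes 0.984% were called higher there. Sod1, the cytosolic superoxide dismutase whose misfolded form MIF binds, rose by 0.92 ± 0.20 on the log2 scale (SE, adjusted p of 0.00202 by DESeq) in the authors' deposited table. Htra1, a secreted serine protease, had 0.74 ± 0.17 (SE, adjusted p of 0.00391 by DESeq) in the authors' deposited table. With the length and GC trend removed their adjusted p values were 0.0560 and 0.0553. In HCD-weaned males Sod1 had 0.79 ± 0.26 (adjusted p of 0.323 by DESeq) in the authors' deposited table. The 8 genes had a median log2 fold change of 0.16, 0.23, 0.12 and 0.05 in the authors' deposited tables, against −0.01, 0.04, 0.00 and 0.01 over all tested genes. Rps19, a ribosomal protein that binds MIF, had −0.70 ± 0.45 in RD-weaned males and Parp1, a DNA repair enzyme, had 0.37 ± 0.20 in RD-weaned females (SE, adjusted p of 1.00 and 0.856 by DESeq) in the authors' deposited tables.

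Downstream of the receptor chain none of 14 signalling genes was called in any comparison, 11 of them having a test in RD-weaned males. Over all tested genes 0.163%, 1.52%, 0.0851% and 0.346% were called in the fixed order. Nothing is therefore read from a count of 0 in so short a list. In the fixed order 8, 6, 6 and 12 of them were positive in the authors' deposited tables. Map2k2, a MAP kinase kinase, came closest. It had 0.83 ± 0.25 in HCD-weaned females and 0.54 ± 0.26 in HCD-weaned males (SE, adjusted p of 0.0515 and 0.586 by DESeq) in the authors' deposited tables. In HCD-weaned females it passed when the adjustment was limited to genes with a mean of at least 100 (adjusted p of 0.0410), and at an adjusted p under 0.10. Dusp1, a phosphatase that turns MAP kinases off, had 0.55 ± 0.35 in RD-weaned males (SE, adjusted p of 1.00 by DESeq) in the authors' deposited table.

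The MHC class II pathway, in which CD74 is the chaperone, held no called gene either, with 15, 14, 12 and 15 genes tested. Against shares of 0.0851% to 1.52% over all tested genes, nothing is read from that count. Their median log2 fold changes were −0.05, 0.13, −0.01 and 0.15 in the authors' deposited tables. H2-Ab1, a class II chain that CD74 escorts, had −0.31, 0.15, 0.13 and 0.04 in the authors' deposited tables. Cd74 itself had −0.28, 0.12, 0.16 and 0.11. The class II chain genes H2-Aa and H2-Eb1 did not share all these signs. H2-Aa had −0.33, −0.19, 0.42 and 0.04, and H2-Eb1 had −0.28, −0.003, −0.72 and −0.03. The gene with the smallest p in RD-weaned males was H2-DMb1, a peptide editor, at −1.03 ± 0.44 (SE, adjusted p of 0.921 by DESeq) in the authors' deposited table. In HCD-weaned females it was Rfxap, part of the factor that drives class II promoters, at 0.75 ± 0.32 (SE, adjusted p of 0.252 by DESeq) in the authors' deposited table. Rfx5, of the same factor, had −0.42 ± 0.26 in HCD-weaned males and H2-Oa, which restrains peptide editing, had 0.40 ± 0.22 in RD-weaned females (SE, adjusted p of 0.679 and 0.878 by DESeq) in the authors' deposited tables. Ciita, the class II transactivator, was below the minimum count in all 4.

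Beside these genes the microglial markers had medians of −0.04, 0.23, −0.14 and 0.31 in the authors' deposited tables, with 12 of 13 positive in RD-weaned females. Of the perivascular and meningeal macrophage markers 5 of 6 were negative in HCD-weaned males, with a median log2 fold change of −0.53. Cd74 and Cd44 were at −0.28 and −0.30 there. In HCD-weaned females, RD-weaned males and RD-weaned females the macrophage medians were 0.15, 0.26 and −0.19 over 5, 3 and 4 tested markers. There Cd74 had 0.12, 0.16 and 0.11 and Cd44 −0.02, 0.19 and −0.08 in the authors' deposited tables. The part of the microglial and macrophage markers in the values of the receptor genes was not tested.

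On the CD44 side, ligands, linkers and sheddases gave 0 called of 16, 15, 12 and 15 tested. The shares over all tested genes were 0.163%, 1.52%, 0.0851% and 0.346%, so nothing is read from these counts. Spp1, which encodes the CD44 ligand osteopontin, had 0.33, 0.80, 0.32 and 0.26 in the authors' deposited tables, with an adjusted p of 0.243 by DESeq for the 0.80 of HCD-weaned females. Vcan, a hyaluronan-binding proteoglycan, had −0.53 ± 0.29 in HCD-weaned males (SE, adjusted p of 0.642 by DESeq) in the authors' deposited table. Cemip, which takes part in hyaluronan breakdown, had −0.71 ± 0.45 in RD-weaned males and Hmmr, a further hyaluronan receptor, had 0.39 ± 0.23 in RD-weaned females (SE, adjusted p of 1.00 and 0.928 by DESeq) in the authors' deposited tables.

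**Figure D5:**
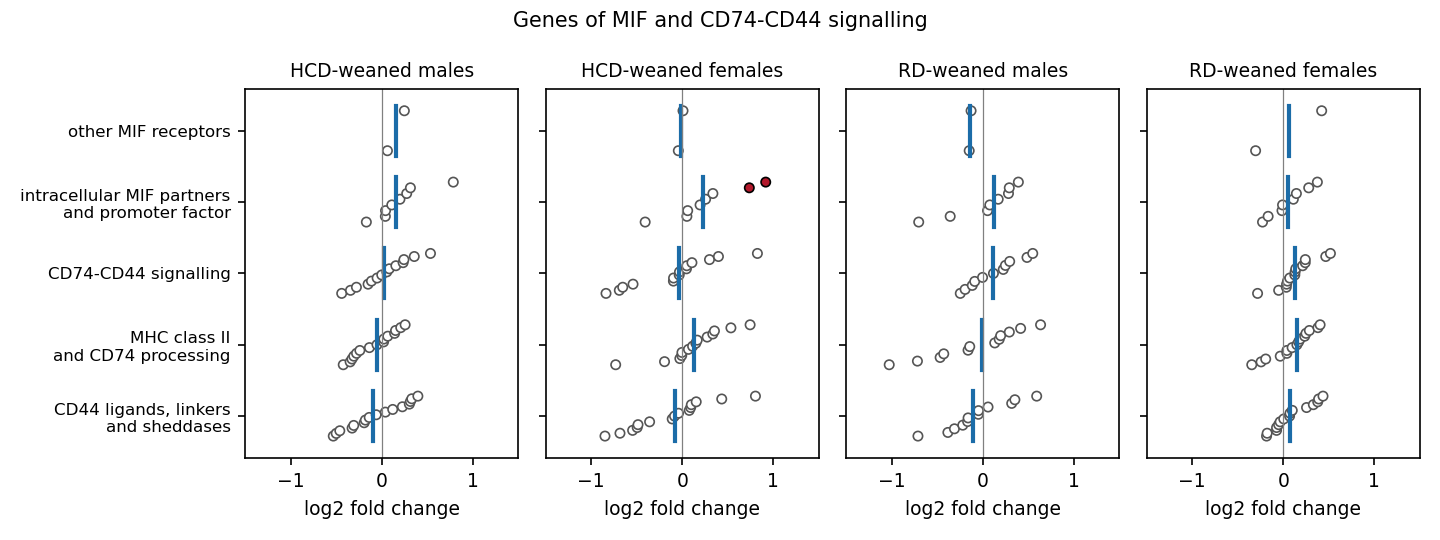
Log2 fold changes of the tested genes of each list around the MIF receptor chain in the 4 comparisons of the authors' tables, with each list's median as a bar. The partner list has medians of 0.16 and 0.23 in HCD-weaned males and females, and called genes appear in HCD-weaned females only (Sod1 and Htra1).

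The genes most like each member over the 4 log2 fold changes were found by Euclidean distance among 14278 genes with a mean of at least 10. Nearest to Mif were Erdr1 at 0.239, Ndufs7 at 0.351, Srp9 at 0.427, Zfp771 at 0.510 and Phf5a at 0.543, where the median gene was at 2.05. Erdr1 had log2 fold changes of 1.32, 1.35, 0.70 and 0.40 in the authors' deposited tables. Its model of 531 bases is about as short as that of Mif (544 bases). The models of Ndufs7, Srp9, Zfp771 and Phf5a are longer, at 983, 1367, 1484 and 1663 bases. The HCD-weaned values that chose Mif enter this distance, so the likeness is a description. Nearest to Ddt were Naca, Cygb and Anapc16, with distances of 0.0422, 0.0425 and 0.0529. Tnfrsf11a, Parp14 and Abcc12 were nearest to Cd74 and Ascc3, Mlxipl and Rbm20 to Cd44. The 4 genes called higher in both HCD-weaned comparisons of the authors' deposited tables were Erdr1, Gstp1, Mif and Rps29, and Malat1 was the 1 gene called lower in both. All 4 of the higher genes lost the call in HCD-weaned males with the length and GC trend removed (adjusted p of 0.164 for Erdr1, 0.405 for Gstp1 and 0.451 for Rps29, z test over all genes) and with the robust spread (0.0523, 0.232 and 0.288). For HCD-weaned females Erdr1 and Gstp1 lost it with the trend removed (0.508 and 0.390, z test over all genes) and with the robust spread (0.142 and 0.151). Gstp1 lost it there also with no filter on low counts (0.0516) and with centred fold changes (0.0604).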

How the data were processed

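Poly(A) RNA of 25 hypothalami was sequenced with a stranded kit, per the labels' protocols. The submitters' processing notes name the build mm10 and DESeq, version not stated. For the aligner, the counter and the annotation, a name is not given in the sources used here. The 4 tables of the authors' comparisons were used. They give a mean normalized count, a signal never below 0, per the file headers. The fold change and standard error are log2 values, per the file headers, and look shrunken toward 0. The Wald statistic is a score in the deposited tables, and the p-value and adjusted p-value are the authors' own. Genes with a mean under 10 have the status Low and no adjusted p. The adjusted p is also missing for 1554 genes of status OK among RD-weaned males. Among RD-weaned females this holds for 342 genes, and Cd44 belongs to these genes in both sexes. The comparisons of HCD-weaned offspring have 0 such genes. The cause was not tested. The other 8 files hold 48 library columns whose names match no label, so they were not used, and the planned edgeR test, depth per sample and any check of single libraries could not be had. The labels do not say whether samples came from separate litters, so p-values measure only the spread between these samples.

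From the tables, intervals (95%, normal), length-scaled levels, differences between comparisons and their Benjamini-Hochberg values were computed with Python 3.11.15, pandas 2.3.3, scipy 1.17.1 and statsmodels 0.14.6, and sequences were aligned with Biopython 1.88. The length and GC trend was a lowess curve (fraction 0.3) through the Wald statistics. The transcript model of a gene was its longest protein-coding transcript, or otherwise its longest transcript. Such models were matched to 98.4% of the symbols. Shorter transcripts of a gene were not weighed, so length-scaled levels and length trends rest on this choice. Alternatives were no filter on low counts, a mean of at least 100, an adjusted p under 0.10, fold changes centred on their median, a robust spread, the trend removed and the RD-weaned signs turned. The members and lists were chosen with earlier results of these data known. Named genes are the members, each list's called genes or otherwise its gene of smallest p, the neighbours within 100 kb by the same choice, and the genes nearest in fold change; others were named after their values were seen. A gene that this rule names among the signalling genes is not reported here.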

Additional observations from a re-analysis of the deposited data

How the results depend on the processing

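The number of members called stayed at 0 in the RD-weaned comparisons and at 0 for every difference between comparisons, under all the alternatives run. In HCD-weaned males it fell from 1 to 0 when the statistics were scaled by their robust spread, and to 0 with the length and GC trend removed. In HCD-weaned females it remained 1, Mif, whose values there fixed the choice, so nothing is read from that call being kept. Of the alternatives for single members 77 kept direction and side of the threshold, 2 lost the call (Mif in HCD-weaned males) and 3 turned in sign, none of them called. Alternatives that alter only the threshold, the genes adjusted or the scale of the statistic leave the fold change as it was, so no sign could turn there. Apart from Mif in HCD-weaned offspring, the smallest adjusted p of the authors' values was 0.449 (DESeq). The count of 77 is thus not a measure of robustness. With the trend removed, Cd74 in HCD-weaned females went to −0.21 (adjusted p of 0.985, z test over all genes), Cd44 there to 0.28 (0.973) and Ddt in RD-weaned males to 0.01 (1.00). Over all genes the calls in HCD-weaned males were 25, and 16 at a mean of at least 100 and 3 with the robust spread. In HCD-weaned females they were 229, and 450 at an adjusted p under 0.10, 56 with the robust spread and 42 with the trend removed. There centring the fold changes gave 100 higher and 96 lower calls, where the authors' values gave 148 and 81. In RD-weaned males 11 became 23 at an adjusted p under 0.10 and 74 with the robust spread, and in RD-weaned females 52 became 90 at an adjusted p under 0.10. The causes were not tested. No paired analysis was possible because the library columns carry no replicate numbers that match the labels. For the same reason edgeR, other normalizations, a joint fit and leaving out libraries were not run. Depth is unknown per sample.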
